A study of Mus musculus with 9 samples.

Results

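The 10 genes described here are Trp53, which encodes the transcription factor p53, and 9 genes that p53 is known to regulate: Mdm2, Cdkn1a, Ccng1, Bax, Bbc3, Pmaip1, Phlda3, Zmat3, and Trp53inp1. They were chosen by name as an established panel of p53 targets, and the counts of all Ensembl transcripts of each gene were summed, so that 10 of 54119 genes were followed over all 9 RNA-seq libraries. All libraries came from primary microglia, the immune cells of the brain, grown from the mixed glia of E18 C57BL/6J mouse brains and shaken off the other glia after culture. Cells were transfected with control siRNA, Chd8 siRNA, or Tsc2 siRNA (3 libraries each, with replicate numbers 1, 2, and 3 in each group), and RNA was isolated 3 days later. An siRNA directs the breakdown of the mRNA whose sequence it pairs with, so each knockdown is partial and acts on every cell type that took it up. The methods give a different brain as the source of each biological replicate and do not say whether libraries with the same number share one. The results of the study state that the cells of all 3 groups were stimulated with LPS for 3 days before the RNA-seq. Its methods give a shorter LPS activation of siRNA-treated microglia and do not list the RNA-seq among the experiments without LPS. The sample labels name no LPS. The study thus gives LPS for all of these libraries, but its duration is not settled.

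p53 is held at a low level by Mdm2, a ubiquitin ligase that marks p53 for degradation and whose own gene p53 induces. When DNA damage or another stress frees p53, it binds a response element made of a pair of short repeats and switches on genes that stop the cell cycle (Cdkn1a, which encodes the CDK inhibitor p21), start apoptosis (Bax, Bbc3, and Pmaip1), or restrain growth signaling. Most of the control of p53 acts on the protein, which was not measured here, and its activity is usually read from the mRNA of its targets. CHD8 is a chromatin remodeler known to hold p53 targets down by bringing linker histone H1 to their promoters, and TSC2 is a subunit of the complex that inhibits mTORC1, a kinase with known links to p53. The comparison therefore asks whether mRNA of the p53 pathway moved when either gene was lowered.

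None of the 10 genes was called (FDR under 0.05 and over 1.5-fold) in either knockdown. Of all 16273 genes tested, 0.0% were called in either knockdown with the siRNA as the only factor. With the replicate number also in the model, 0.535% were called with Chd8 siRNA and 0.387% with Tsc2 siRNA. The replicate number, rather than the siRNA, held most of the variance of Cdkn1a, Pmaip1, Trp53inp1, and Phlda3. Trp53 itself was at 40.6 ± 5.92 normalized CPM with Tsc2 siRNA against 30.0 ± 1.84 with control siRNA (SD, n = 3). Its libraries did not overlap, as for 8.11% of all genes tested with Tsc2 siRNA, and it did not pass the test across all genes. Normalized CPM are counts scaled to a common library size (CPM) with edgeR's TMM factors.

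The response element was searched for in the RefSeq promoters of these genes (GRCm38.p6, 250 bases before to 50 after a start), because a match marks which promoters carry the letters p53 is known to read. The motif was the p53 response element by its name, with 2 repeats of 10 bases, a spacer of 0 to 13 bases, the C at position 4 and the G at position 7 of each repeat fixed, and up to 3 mismatches at the other positions. The repeat reads the same way on both strands, so each site covers both. Promoters were given for 7 of the 10 genes, and the table had no entry for Pmaip1, Zmat3, or Trp53inp1. The 3 closest sites lay in the promoters of Cdkn1a (upstream start), Ccng1, and Bax, and they are printed 5′ to 3′ on the gene's strand with the repeats in capitals and 20 bases on each side.
Cdkn1a, upstream start: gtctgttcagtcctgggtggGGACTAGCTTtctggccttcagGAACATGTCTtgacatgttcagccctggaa
Ccng1: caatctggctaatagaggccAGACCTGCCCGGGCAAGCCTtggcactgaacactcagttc
Bax: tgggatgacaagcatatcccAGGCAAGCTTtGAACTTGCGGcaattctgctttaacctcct
The Cdkn1a window lies at chr17:29090886-29090957 on the + strand, with 0 mismatches and a spacer of 12 bases, from 73 bases before the upstream start. The 10 lower-case bases right after its second repeat also form a site with that repeat, with 1 mismatch and no spacer. Only the pair with the fewest mismatches is in capitals, and the search does not show which pair p53 binds. The Ccng1 window lies at chr11:40755442-40755501 on the - strand, with 1 mismatch and no spacer. The Bax window lies at chr7:45467059-45467119 on the - strand, with 2 mismatches and a spacer of 1 base. Of 32851 RefSeq promoters, 0.0731% held a match with 0 mismatches, 0.627% with up to 1, 4.09% with up to 2, and 15.6% with up to 3. The Trp53 promoter and 2 of the Bbc3 promoters held matches only at 3 mismatches, a level that many promoters reach. The promoters of Mdm2 and Phlda3 and the downstream start of Cdkn1a held no match within 3 mismatches, which says only that these letters are not in these windows.

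Cdkn1a mRNA came almost entirely from the other start. Cdkn1a (ENSMUSG00000023067, chr17:29090976-29100727, + strand) has a main start at 29093769, which lies 2790 bases downstream of the start with the printed site. Transcripts from the main start held between 97.9% and 99.7% of the gene's counts in the 9 libraries. Counts per start cannot show which start the printed site acts on, and this was not tested. The upstream start held 0.637% ± 0.581 with control siRNA, 0.119% ± 0.106 with Chd8 siRNA, and 0.331% ± 0.28 with Tsc2 siRNA (SD, n = 3). In CPM it was at 4.27, 1.92, and 1.56 with control siRNA, 0.166, 1.61, and 0.543 with Chd8 siRNA, and 1.35, 3.54, and 0.117 with Tsc2 siRNA. The control and Chd8 siRNA libraries overlapped in CPM and lay apart in this share only by a narrow margin. Those of control and Tsc2 siRNA overlapped in both. These shares rest on low counts that were divided between transcripts by estimate, and how often other genes show such a gap was not tested. An annotated gene, AC167363.2, overlaps Cdkn1a on the other strand. Mdm2 (ENSMUSG00000020184, chr10:117688875-117710758, - strand) likewise came mainly from a single start region, whose 5 transcripts held between 90.8% and 94.5% of its counts.

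The libraries first need their own description. Total counts were between 16913448 and 33213801, and 3 counts, taken as the floor, were between 0.0903 and 0.177 CPM before scaling, a limit that covers counting error only. Each targeted gene was lower in its own knockdown without overlap with control siRNA, with Chd8 at 86.8, 44.5, and 38.3 normalized CPM in Chd8 siRNA replicates 1 to 3 against 118, 97.4, and 93.6 with control siRNA. Tsc2 was at 24.6, 30.6, and 36.5 with Tsc2 siRNA against 40.8, 39.9, and 38.9. Chd8 passed the test only with the replicate number in the model as a block (log2 fold change −0.93 ± 0.14 SE, adjusted p = 0.00777), and Tsc2 passed in neither fit (−0.39 ± 0.12 SE with the block, adjusted p = 0.219; edgeR's quasi-likelihood test, p-values adjusted over all genes by the Benjamini-Hochberg method throughout).

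Markers of other cell types differed between the replicate numbers and, for some, between the siRNAs. The 10 microglial markers summed to between 2154 and 3029 normalized CPM, with Csf1r, Itgam, and Ptprc high and Tmem119 close to 0. The 6 astrocyte markers summed to between 10.1 and 12.1 in the replicate 1 libraries, 20.6 and 23.7 in replicate 2, and 39.4 and 96.3 in replicate 3, with the highest sum in control siRNA replicate 3. The 4 fibroblast and pericyte markers summed to between 7.47 and 9.99 in replicate 1, 14.7 and 29.9 in replicate 2, and 26.8 and 63.3 in replicate 3. Within each replicate number this fibroblast and pericyte sum was lower with Chd8 siRNA and with Tsc2 siRNA than with control siRNA. In edgeR's quasi-likelihood fit with the block, Col1a1, a collagen chain of fibroblasts that is named here after its values were seen, was called lower with Chd8 siRNA (log2 fold change −1.31 ± 0.25 SE, adjusted p = 0.0218) and had −1.03 ± 0.24 SE with Tsc2 siRNA (adjusted p = 0.0794). The other 2 fibroblast and pericyte markers tested, Col1a2 and Pdgfrb, had −0.60 ± 0.31 SE and −0.28 ± 0.26 SE with Chd8 siRNA, and −0.89 ± 0.32 SE and 0.42 ± 0.26 SE with Tsc2 siRNA. Of the 6 astrocyte markers, 2 had positive and 4 negative values in each knockdown, with 0 higher and 2 lower at an unadjusted p under 0.05 with Chd8 siRNA, and 0 and 1 with Tsc2 siRNA. Of 9 microglial markers, 3 were higher and 2 lower at that level with Chd8 siRNA, and 3 and 1 with Tsc2 siRNA. The share of all genes at that level, in either direction, was 12.8% with Chd8 siRNA and 10.7% with Tsc2 siRNA. In addition, 3 of the 6 oligodendrocyte, 2 of the 4 neuronal, and 2 of the 3 endothelial markers passed the count filter, with sums at or below 27.03, 14.97, and 13.8 normalized CPM, and Rbfox3 and Cldn5 were at or under the floor in every library. In bulk RNA, fewer cells of a type and less RNA per cell cannot be told apart, and the part of these cells in the values below was not tested.

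**Figure D1:**
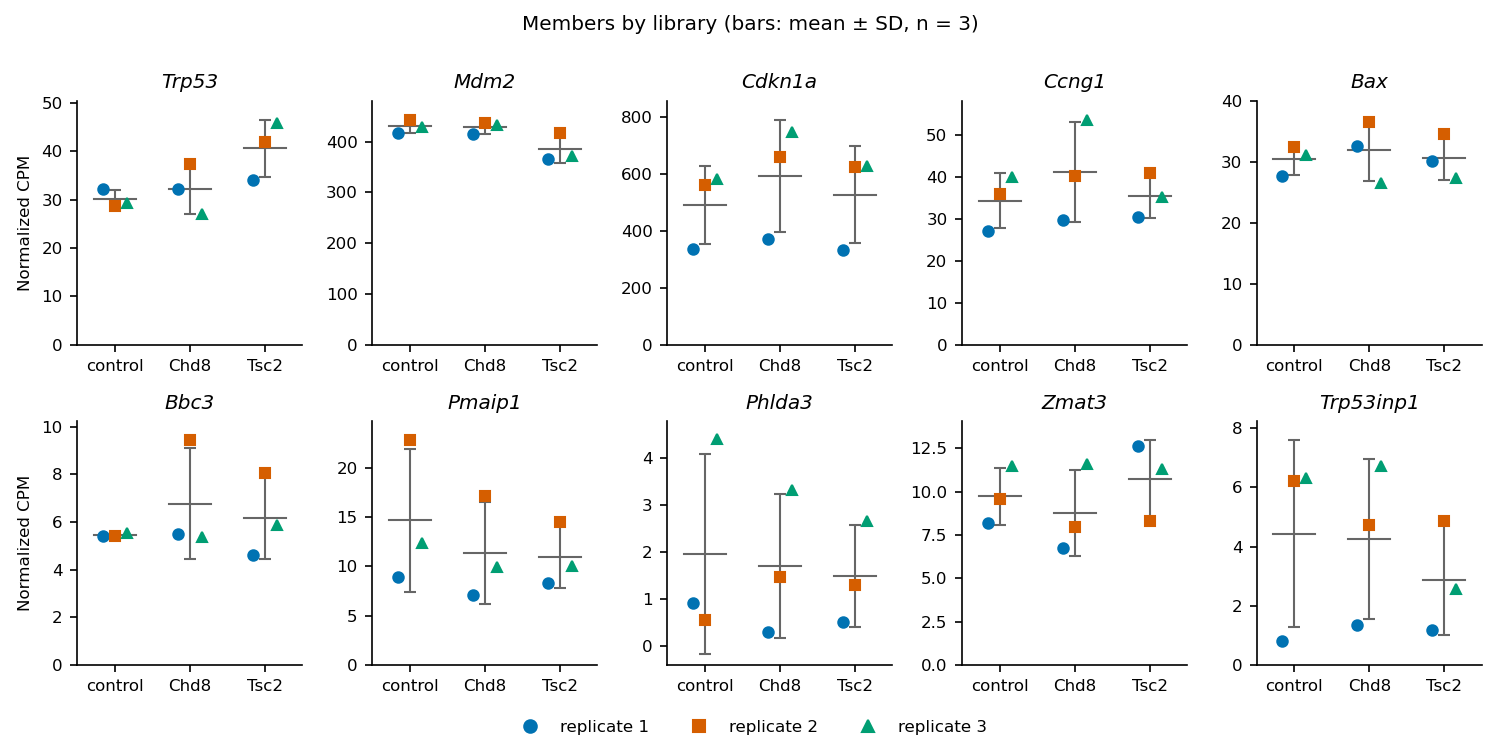
Normalized CPM (vertical axes, starting at or below 0, a scale per gene) of the 10 genes in the 9 libraries by siRNA (horizontal axes), with each point a library, shape and color giving the replicate number, and bars the mean ± SD of 3 libraries. Trp53 with Tsc2 siRNA lies between 34.1 and 45.8, above all control siRNA libraries, whereas Cdkn1a and Trp53inp1 split by replicate number in every group.

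Trp53 (ENSMUSG00000059552, chr11:69580359-69591873, + strand) was at 32.1, 28.6, and 29.4 normalized CPM in control siRNA replicates 1 to 3. It was at 32.2, 37.4, and 27.1 with Chd8 siRNA, and at 34.1, 41.9, and 45.8 with Tsc2 siRNA. Only the Tsc2 siRNA libraries lay apart from the control libraries, and all 3 were higher. The log2 fold change was 0.43 ± 0.16 SE with Tsc2 siRNA (95% CI 0.07 to 0.80, unadjusted p = 0.024, adjusted p = 1.00) and 0.10 ± 0.16 with Chd8 siRNA (95% CI −0.26 to 0.46). With the replicate block the Tsc2 siRNA value was 0.43 ± 0.14 SE with an adjusted p of 0.235, and it did not pass. Within replicate numbers, the ratio of Tsc2 siRNA to control siRNA was 1.06, 1.46, and 1.56. The difference was smallest at replicate 1 and close to 1.5-fold in the other pairs. Tsc2 itself was at 24.6, 30.6, and 36.5 normalized CPM with Tsc2 siRNA against 40.8, 39.9, and 38.9 with control siRNA. Tsc2 was thus lowered most at replicate 1, where Trp53 differed least, and least at replicate 3, where Trp53 differed most. Against Tsc2 siRNA, Chd8 siRNA gave a log2 difference in Trp53 of −0.33 ± 0.16 SE without the block and −0.34 ± 0.14 SE with it (adjusted p = 0.373).

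Mdm2, the main negative regulator of p53, was at 418, 443, and 429.8 normalized CPM with control siRNA. With Chd8 siRNA it was at 414, 438, and 432, and with Tsc2 siRNA at 367, 417, and 373. The control and Chd8 siRNA libraries were interleaved, and the Tsc2 siRNA libraries were all below the control libraries, the nearest by a narrow margin. The log2 fold change was −0.01 ± 0.10 SE with Chd8 siRNA and −0.16 ± 0.10 SE with Tsc2 siRNA (unadjusted p = 0.154, and 0.0271 with the block, where the adjusted p was 0.377). Under DESeq2's size factors the Tsc2 and control siRNA libraries overlapped. Mdm2 was the most stable of the 10 genes, with its highest library 1.21 times its lowest, and the 95% interval of its Chd8 siRNA effect reached from 0.848-fold to 1.17-fold.

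Across all genes tested, groups that did not overlap were found for 8.11% with Tsc2 siRNA, and Trp53 and Mdm2 were 2 of the 10 members. With Chd8 siRNA the share was 9.09% of all genes and 0 of the 10 members, and between Chd8 and Tsc2 siRNA it was 8.44% of all genes and again 0 of the 10.

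Cdkn1a had the highest group means among these genes, and its libraries split by replicate number. It was at 335, 560.0, and 583 normalized CPM in control siRNA replicates 1 to 3, at 371, 661, and 748 with Chd8 siRNA, and at 332, 625, and 627 with Tsc2 siRNA. All replicate 1 libraries were below all others, and the siRNA groups overlapped. Without the block, the log2 fold change was 0.27 ± 0.32 SE with Chd8 siRNA (95% CI −0.45 to 0.99, adjusted p = 1.00) and 0.10 ± 0.32 with Tsc2 siRNA. Within replicate numbers, Chd8 siRNA was higher than control siRNA in each pair, by 1.11-, 1.18-, and 1.28-fold. With the block, the log2 fold change was 0.25 ± 0.07 SE (95% CI 0.11 to 0.39, unadjusted p = 0.00219, adjusted p = 0.0962), the lowest adjusted p of the 10 genes, which missed the FDR of 0.05. The interval ended at 1.31-fold, below the 1.5-fold threshold. With Tsc2 siRNA it was 0.08 ± 0.07 with the block, and the difference between both knockdowns was 0.17 ± 0.07 (adjusted p = 0.372).

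Ccng1, which encodes cyclin G1 (ENSMUSG00000020326, chr11:40748552-40755311, - strand), was at 27.1, 36.0, and 39.98 normalized CPM with control siRNA, at 29.8, 40.2, and 53.7 with Chd8 siRNA, and at 30.5, 40.9, and 35.3 with Tsc2 siRNA. It was higher with Chd8 siRNA at each replicate number (1.10-, 1.12-, and 1.34-fold), though the groups overlapped. The log2 fold change was 0.26 ± 0.23 SE without and 0.25 ± 0.13 SE with the block (adjusted p = 1.00 and 0.434). A same direction at all 3 numbers was common, since 36.0% of all genes with Chd8 siRNA, 31.8% with Tsc2 siRNA, and 32.1% between the knockdowns had one. Among the members it held for Cdkn1a, Ccng1, and Pmaip1 with Chd8 siRNA for Trp53, Mdm2, and Pmaip1 with Tsc2 siRNA, and for Trp53, Mdm2, and Cdkn1a between the knockdowns.

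Of the apoptosis genes, Pmaip1, which encodes the BH3-only protein Noxa (ENSMUSG00000024521, chromosome 18), was at 8.90, 22.8, and 12.4 normalized CPM with control siRNA. It was at 7.07, 17.2, and 9.91 with Chd8 siRNA and at 8.37, 14.5, and 10.01 with Tsc2 siRNA. The replicate 2 library was the highest in each group, and the groups overlapped. Within replicate numbers, the ratio to control siRNA was 0.794, 0.751, and 0.802 with Chd8 siRNA and 0.940, 0.634, and 0.810 with Tsc2 siRNA. With the block the log2 fold changes were −0.36 ± 0.16 SE and −0.35 ± 0.16 SE, with unadjusted p of 0.0458 and 0.0486 and adjusted p of 0.375 and 0.464. The direction was opposite to that of Cdkn1a in the Chd8 siRNA pairs.

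Bax, which encodes a pore-forming protein of the mitochondrial outer membrane (ENSMUSG00000003873, chr7:45461697-45466898, - strand), was between 27.6 and 32.5 normalized CPM with control siRNA, 26.6 and 36.5 with Chd8 siRNA, and 27.3 and 34.5 with Tsc2 siRNA. Its log2 fold changes were 0.07 ± 0.16 SE and 0.01 ± 0.16 SE, and both 95% intervals stayed within 1.5-fold in either direction. Gm45808 overlaps Bax on the same strand, so that reads of both could be split between them. Bbc3, which encodes the BH3-only protein PUMA (ENSMUSG00000002083, chr7:16308393-16318205, + strand), was at 5.43, 5.42, and 5.53 with control siRNA. It was at 5.49, 9.44, and 5.39 with Chd8 siRNA and at 4.61, 8.07, and 5.86 with Tsc2 siRNA. In both knockdowns the replicate 2 library alone was well above the control libraries, and the log2 fold changes were 0.31 ± 0.29 SE and 0.18 ± 0.29 SE.

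The other targets were low. Phlda3, which encodes an inhibitor of Akt signaling (ENSMUSG00000041801, chr1:135766119-135769136, + strand), was at 0.905, 0.554, and 4.42 normalized CPM with control siRNA, between 0.301 and 3.33 with Chd8 siRNA, and between 0.512 and 2.66 with Tsc2 siRNA, with as few as 9 counts in a library. Trp53inp1, which encodes a p53-inducible nuclear protein (ENSMUSG00000028211, chr4:11156431-11174379, + strand), was at 0.792, 6.22, and 6.31 with control siRNA, 1.34, 4.72, and 6.70 with Chd8 siRNA, and 1.20, 4.86, and 2.58 with Tsc2 siRNA. Both were lowest in replicate 1 libraries in nearly every group, the exception being Phlda3 in control siRNA. Zmat3, which encodes an RNA-binding zinc finger protein (ENSMUSG00000027663, chr3:32334792-32366014, - strand), was between 8.18 and 11.5 with control siRNA, 6.77 and 11.6 with Chd8 siRNA, and 8.27 and 12.6 with Tsc2 siRNA. The intervals of Phlda3 and Trp53inp1 were wide, reaching from 0.195- to 3.81-fold and from 0.284- to 3.25-fold with Chd8 siRNA, so a change of 1.5-fold was not detectable in them without the block. With the block these intervals were 0.387- to 1.77-fold and 0.648- to 1.74-fold.

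**Figure D2:**
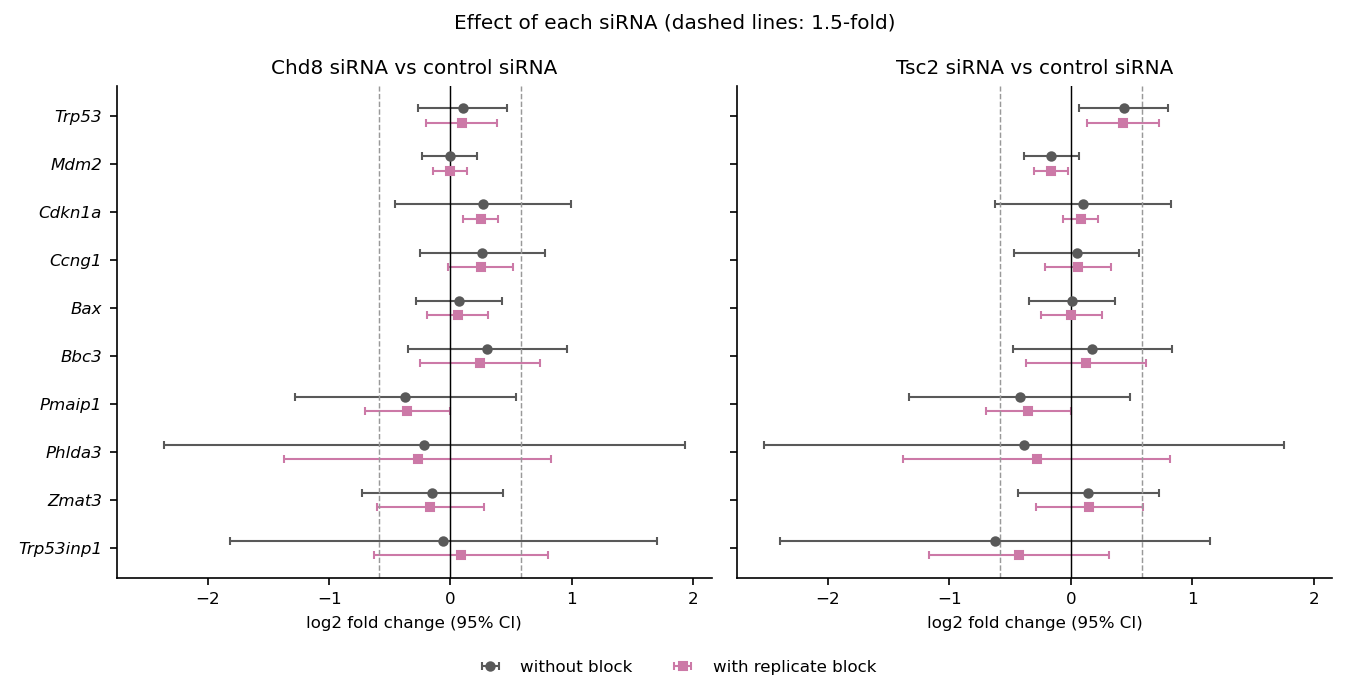
log2 fold change (horizontal axis) of each gene (vertical axis) with Chd8 siRNA (left) and Tsc2 siRNA (right) against control siRNA, with 95% confidence intervals from edgeR's fit without the block (gray circles) and with it (pink squares), and dashed lines at 1.5-fold. The intervals of Cdkn1a narrow with the block, from 0.730- to 1.99-fold without it to 1.08- to 1.31-fold with it for Chd8 siRNA, while those of Phlda3 stay wide.

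All 10 genes passed the count filter, and 0 of the 10 were called (FDR under 0.05 and over 1.5-fold) in either knockdown or between the knockdowns. Of all 16273 genes tested, 0.0% were called with either siRNA without the block, where 622 had an unadjusted p under 0.05 with Chd8 siRNA and 425 with Tsc2 siRNA. With the block 0.535% (87 genes) were called with Chd8 siRNA and 0.387% (63 genes) with Tsc2 siRNA, and DESeq2's Wald test called 9 and 6. Without control siRNA replicate 3, the block gave 20 and 7 genes. Between the knockdowns, 0.0% were called without the block and 0.221% (36 genes) with it. An unadjusted p under 0.05 without the block was found there for 0 of the 10 members, beside 3.10% of all genes. Among the members, unadjusted p was under 0.05 without the block for 0 with Chd8 siRNA, beside 3.82% of all genes, and for 1 with Tsc2 siRNA, beside 2.61%. With the block it was so for 2 with Chd8 siRNA (12.8% of all genes), 3 with Tsc2 siRNA (10.7%), and 3 between the knockdowns (10.7%). The median log2 fold change of the members was 0.03 with either siRNA, beside −0.02 over all genes. The members went both ways, with 5 positive and 5 negative values with Chd8 siRNA, and 6 and 4 with Tsc2 siRNA. For Trp53, Mdm2, and Bax with Chd8 siRNA, and Mdm2, Ccng1, and Bax with Tsc2 siRNA, the 95% interval excluded a 1.5-fold change in both directions. The block added Cdkn1a and Ccng1 to the first group, and in the second it added Cdkn1a.

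The replicate number held more of the variance than the siRNA for 8 of the 10 genes, as it did for 11004 of all 16273 genes. It took 93.0% of the variance of log2 CPM of Cdkn1a over the 9 libraries, 85.7% of Trp53inp1, 85.4% of Pmaip1, 81.9% of Phlda3, and 67.8% of Ccng1, beside a median of 41.6% over all genes. The siRNA took 5.90% of the variance of Cdkn1a. Trp53 and Mdm2 were the exceptions, with 58.0% and 64.6% taken by the siRNA and 4.57% and 26.9% by the replicate number. Tested in the blocked fit, a test chosen after the data were seen, the replicate number passed an FDR of 0.05 for Cdkn1a, Trp53inp1, Pmaip1, Phlda3, and Ccng1. These were 5 of the 10 members, beside 25.0% of all genes. Cdkn1a averaged 346 normalized CPM in the replicate 1 libraries, 615 in replicate 2, and 653 in replicate 3 (adjusted p = 2.12e-07). The genes were not high at the same number, since Pmaip1 averaged 8.11, 18.2, and 10.8 and Phlda3 averaged 0.573, 1.11, and 3.47.

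**Figure D3:**
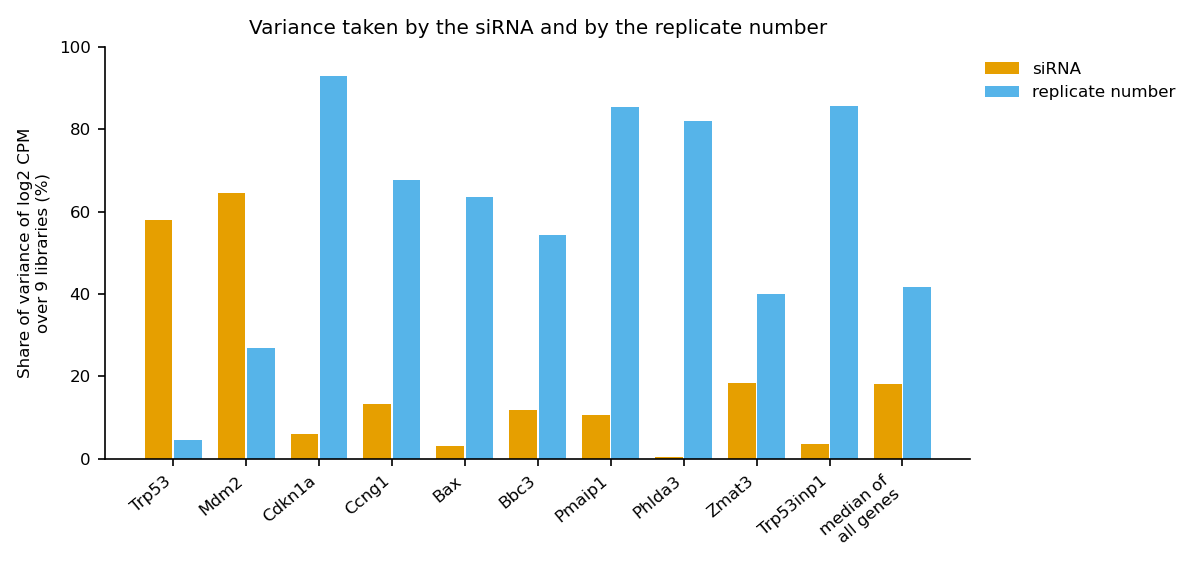
Share of the variance of log2 CPM over the 9 libraries, in percent (vertical axis, bars from 0), that lies between the siRNA groups (orange) and between the replicate numbers (blue), for each gene and as the median over all 16273 genes tested. The replicate number takes 93.0% for Cdkn1a and the siRNA 58.0% for Trp53.

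The marker sums of other cell types differed between the replicate numbers as well, with the astrocyte and fibroblast sums lowest in the replicate 1 libraries, where Cdkn1a was lowest too. The microglial and endothelial sums ran the other way and were highest in the replicate 1 library of each siRNA, and the oligodendrocyte sum was lowest and the neuronal sum highest in each replicate 3 library. Cdkn1a was at 560.0 and 583 normalized CPM in replicates 2 and 3 with control siRNA, at 661 and 748 with Chd8 siRNA, and at 625 and 627 with Tsc2 siRNA. The astrocyte sum was higher in each replicate 3 library than in the replicate 2 library of the same siRNA. The part of these cells in the levels of Cdkn1a was not tested.

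**Figure D4:**
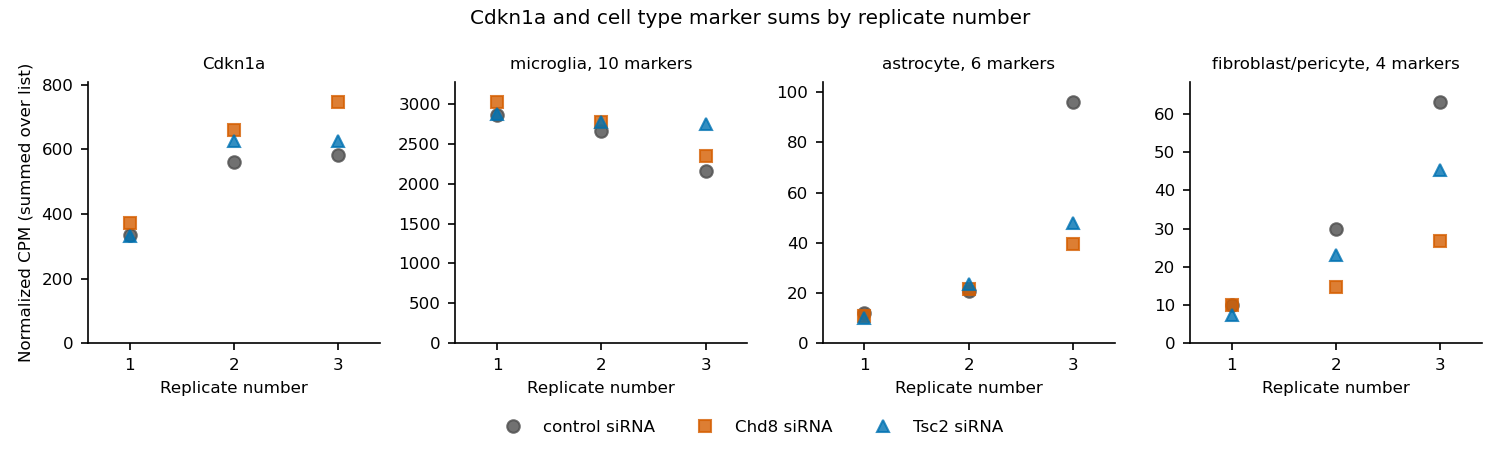
Normalized CPM of Cdkn1a and of summed marker lists of microglia, astrocytes, and fibroblasts or pericytes (vertical axes from 0, a scale per panel) by replicate number (horizontal axes), with each point a library and shape and color giving the siRNA. Cdkn1a is lowest in the replicate 1 libraries (332 to 371), and the astrocyte sum reaches 96.3 in control siRNA replicate 3.

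Per transcript length (TPM calculated from the counts and GENCODE transcript lengths), the order of levels in control siRNA libraries was Cdkn1a (129.7 ± 38.9 TPM), Mdm2 (87.2 ± 7.87), Bax (16.7 ± 2.29), Trp53 (8.51 ± 0.792), Ccng1 (4.91 ± 1.21), Pmaip1 (2.63 ± 1.06), Bbc3 (2.58 ± 0.552), Phlda3 (0.726 ± 0.836), Zmat3 (0.676 ± 0.149), and Trp53inp1 (0.444 ± 0.289; SD, n = 3). Neighbors overlapped for Cdkn1a and Mdm2, for Pmaip1 and Bbc3, and among the 3 lowest genes. Cdkn1a exceeded 98.5% of all genes tested by this measure, Mdm2 97.6%, and Trp53 81.2%.

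Of the 45 transcripts of these genes in the table, 40 had counts and 31 passed the filter. None was called in either knockdown by edgeR's quasi-likelihood test, which called 0.0% of all 41633 transcripts tested. DESeq2's Wald test called 187 of them with Chd8 siRNA and 172 with Tsc2 siRNA, and 0 of these were member transcripts. In edgeR's fit, an unadjusted p under 0.05 was found with Chd8 siRNA for 0 of the 31, beside 3.32% of all transcripts, and with Tsc2 siRNA for 2, beside 2.83%. The pair was Trp53-201 and Bbc3-202, both low (at most 6.01 and 1.39 CPM) and Trp53-201 at 0 in 6 of 9 libraries. The main transcript of Trp53, Trp53-203, held 83.2% of the gene's mean and was at 26.96, 26.25, and 24.8 CPM with control siRNA and at 24.1, 35.1, and 36.6 with Tsc2 siRNA, so that its groups overlapped where those of the summed gene did not. Its log2 fold change was 0.30 ± 0.23 SE (adjusted p = 1.00). The other 5 Trp53 transcripts summed to 4.41, 2.61, and 4.95 CPM with control siRNA and to 9.52, 7.13, and 9.17 with Tsc2 siRNA, so that these sums did not overlap. Among them, Trp53-201 was at 0 in every control siRNA library and at 5.73, 0, and 5.51 with Tsc2 siRNA. Trp53-201 and Trp53-203 are nearly the same transcript, with the same start, 11 exons each, and lengths of 1772 and 1771 bases. The split of counts between them is therefore uncertain, and so is the contrast of Trp53-203 with the other transcripts. The counts of Zmat3 were also divided unevenly, with Zmat3-203 at 5.48 in control siRNA replicate 1, 5.74 in Chd8 siRNA replicate 1, and 0 in the other libraries. Such splits of estimated counts are less certain than the sums. The second transcript of Cdkn1a, Cdkn1a-205, was at 5.74, 4.84, and 2.91 CPM with control siRNA and at 5.68, 7.04, and 13.5 with Chd8 siRNA (log2 fold change 0.96, unadjusted p = 0.0502). For Mdm2, Mdm2-201 held 76.2% and the retained-intron transcript Mdm2-205 held 8.23% of the mean.

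The genes were only in part correlated with each other over the 9 libraries, which share their siRNA groups and replicate numbers. Of the 45 pairs of members, 35 had a positive Pearson r and 5 had r over 0.7. The highest values were those of Cdkn1a with Trp53inp1 (r = 0.90) and with Ccng1 (r = 0.90), all of them genes that differed by replicate number. Trp53 had r = 0.10 with Cdkn1a and −0.55 with Mdm2. Among 6691 other genes with a mean of at least 8 CPM, those most like Trp53 included Mmd (r = 0.95), 2310043P16Rik (0.93), and Mitf (0.92). Those most like Cdkn1a were Spire1, Mycl, Adamts4, Itgav, and Kpna3 (r = 0.97 to 0.98), for each of which the replicate number took over 88% of the variance.

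The wider p53 pathway was read from lists of 77 further genes, of which 73 passed the filter. None of the 73 was called in either knockdown, without or with the block. With the block, 4 were higher and 9 lower at an unadjusted p under 0.05 with Chd8 siRNA, and 1 and 6 with Tsc2 siRNA, that is 13 and 7 of 73, beside 12.8% and 10.7% of all genes. The medians of the log2 fold changes were −0.05 and −0.08, beside −0.02 and −0.01 over all genes. Among the 18 regulators of p53, 1 was lower at that level in each knockdown, and it was Hipk2, a kinase that phosphorylates p53. Hipk2 was at 262, 139, and 159 normalized CPM with control siRNA, 191, 123, and 140.1 with Chd8 siRNA, and 187, 134, and 141 with Tsc2 siRNA. It was below control siRNA at every replicate number (log2 fold change with the block −0.27 ± 0.09 SE and −0.24 ± 0.09 SE, adjusted p = 0.160 and 0.308). The family members Trp63 and Trp73 did not pass the filter.

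Among 43 other induced targets that were measured, the medians were −0.04 with Chd8 siRNA and −0.12 with Tsc2 siRNA with the block. With Chd8 siRNA the 3 positive values with the lowest p were those of Gtse1, Tap1, and Ctsd. Gtse1, which encodes a microtubule-binding protein that restrains p53, was at 0.113, 1.60, and 2.83 normalized CPM with control siRNA and at 2.21, 3.83, and 7.45 with Chd8 siRNA. Each pair was higher, although the groups overlapped and the adjusted p was 0.0611 (log2 fold change 2.02 ± 0.48 SE with the block). Without the block the log2 fold change was 1.57 ± 1.01 SE and did not pass. Control siRNA replicate 1 was at the floor of 3 counts for Gtse1. Tap1, a peptide transporter of antigen presentation, had 0.27 ± 0.07 with the block (adjusted p = 0.081), and Ctsd, a lysosomal protease, 0.24 ± 0.08 (adjusted p = 0.177). Of the negative values, the 2 with the lowest p were those of E2f7, a transcriptional repressor of the cell cycle (−1.01 ± 0.36), and of Cd82, a tetraspanin (−0.33 ± 0.13), with adjusted p of 0.221 and 0.272.

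With Tsc2 siRNA, Triap1, which encodes an inhibitor of apoptosis, was at 4.01, 4.66, and 3.31 normalized CPM against 2.07, 2.59, and 1.24 with control siRNA. These values are low, and the groups did not overlap, as for 8.11% of all genes tested with Tsc2 siRNA. The log2 fold change with the block was 1.05 ± 0.32 SE (adjusted p = 0.202). Bak1, a relative of Bax (0.21 ± 0.10), and Cop1, a ubiquitin ligase for p53 from the list of regulators (0.13 ± 0.08), followed with adjusted p of 0.501 and 0.641. Plk3 and Plk2, kinases of the stress response that p53 induces, had negative values of −0.64 ± 0.18 and −0.28 ± 0.08 (adjusted p = 0.145 and 0.183), and each was below control siRNA at all 3 replicate numbers. Plk2 was at 459, 605, and 789 with control siRNA and at 404, 561, and 532 with Tsc2 siRNA, and it also differed by replicate number. With Chd8 siRNA, the blocked fit gave 0.27 ± 0.10 SE for Bak1, −0.40 ± 0.18 for Plk3, and −0.20 ± 0.08 for Plk2 (adjusted p = 0.252, 0.365, and 0.305). It gave 0.23 ± 0.33 for Triap1 and 0.10 ± 0.08 for Cop1 (adjusted p = 0.838 and 0.687).

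Genes that p53 activity is known to lower, such as those of mitosis, had a median of −0.37 with Chd8 siRNA and −0.41 with Tsc2 siRNA in the blocked fit over 12 genes, and −0.13 and −0.69 without the block. None was called, and most were low. Mki67, a proliferation marker and the highest of them, was at 34.5, 46.7, and 84.4 normalized CPM with control siRNA, 30.1, 40.9, and 52.0 with Chd8 siRNA, and 44.8, 41.7, and 53.6 with Tsc2 siRNA. The groups overlapped, and its highest library was control siRNA replicate 3, the library with the highest astrocyte sum. Mki67 was lower with Chd8 siRNA than with control siRNA in each of the 3 pairs (log2 fold change with the block −0.38 ± 0.15 SE, unadjusted p = 0.0231, adjusted p = 0.285). With the block, 3 of the 12 genes had negative values at an unadjusted p under 0.05 with Chd8 siRNA, beside 12.8% of all genes in either direction, and 0 with Tsc2 siRNA, beside 10.7%. The 7 linker histone genes had medians of −0.33 and −0.11 with the block, with none called. Hist1h1c, for example, was between 4.56 and 14.4 with control siRNA and between 3.38 and 10.1 with Chd8 siRNA (−0.34 ± 0.22 SE, adjusted p = 0.564).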

How the data were processed

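The authors quantified reads with salmon 0.14.1 on mm10 and deposited a table of estimated counts for each transcript and library, neither normalized nor pooled. The release of their transcript annotation is not given in the sources used here. Groups were taken from the sample labels. Counts were summed per gene with GENCODE mouse release 21 (GRCm38), which matched 139852 of 140948 transcripts (the others held 0.27% of counts), and rounded to whole numbers. Splitting of reads among similar transcripts by salmon affects single transcripts more than sums.

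Genes were tested with edgeR 4.0.16 in R 4.3.3 (filterByExpr, TMM, quasi-likelihood test, all 9 libraries, siRNA as the only factor, Benjamini-Hochberg adjustment), and called where the FDR was under 0.05 and the change over 1.5-fold. Standard errors and 95% intervals were calculated back from the F statistic. log2 CPM used a prior count of 2. The fit was tested on simulated data. Deviations from the group means correlated across genes with r between 0.24 and 0.52 in all 9 pairs of libraries with the same number and with −0.38 to 0.04 in the 18 other pairs, so that the replicate number was also fitted as a block. The p-values measure the spread between these libraries. Alternatives were DESeq2 1.42.0, other size factors, no count filter, 2 groups only, no fold-change threshold, the most abundant transcript only, and leaving out each library.

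The members and lists were chosen with earlier results of these data known. Named beyond the members are called genes of the p53 lists and, per knockdown, the 3 higher and 3 lower genes with the lowest p in the blocked fit, the 5 genes most correlated with Trp53 and with Cdkn1a (some of those for Trp53 are not reported here), and the 2 most abundant transcripts of a member. Mki67, Hist1h1c, and the single markers of other cell types were named after their values were seen, and so were the ratios within replicate numbers. Promoters came from RefSeq.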

Additional observations from a re-analysis of the deposited data

How the results depend on the processing

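The call of 0 members held in every alternative that was run for each of the 3 comparisons, as did 0 member transcripts in both knockdowns. The number of all genes called did change. With the replicate block it was 87 with Chd8 siRNA, 63 with Tsc2 siRNA, and 36 between the knockdowns, with DESeq2's Wald test 9, 6, and 5, and with no count filter 2 and 1 against control siRNA. When each library was left out, without or with the block, it was between 0 and 108 with Chd8 siRNA, 0 and 131 with Tsc2 siRNA, and 0 and 130 between the knockdowns. The lowest counts against control siRNA with the block came without control siRNA replicate 3 (20 and 7). The cause was not tested. Over all alternatives, 4 of the 20 log2 fold changes of members against control siRNA kept their sign: those of Cdkn1a (0.055 to 0.52) and Ccng1 (0.033 to 0.45) with Chd8 siRNA and of Trp53 (0.26 to 0.58) and Mdm2 (−0.22 to −0.12) with Tsc2 siRNA. The other 16 changed sign under at least 1 alternative. With Chd8 siRNA, Mdm2 was 0.0038 with DESeq2's size factors, 0.00058 with no count filter, 0.0038 with DESeq2's Wald test, and 0.0064 with its most abundant transcript only, and Trp53inp1 was 0.088 with the replicate block and 0.63 with its most abundant transcript only. With Tsc2 siRNA, Bax was −0.011 under upper-quartile normalization. Leaving out a library, without or with the block, gave log2 fold changes with Chd8 siRNA from −0.022 to 0.25 for Trp53, −0.027 to 0.018 for Mdm2, −0.036 to 0.19 for Bax, −0.0034 to 0.45 for Bbc3, −0.79 to 0.096 for Pmaip1, −1.20 to 1.20 for Phlda3, −0.40 to 0.0079 for Zmat3, and −0.56 to 0.37 for Trp53inp1. With Tsc2 siRNA it gave −0.11 to 0.35 for Cdkn1a, −0.095 to 0.22 for Ccng1, −0.079 to 0.13 for Bax, −0.094 to 0.35 for Bbc3, −0.68 to 0.047 for Pmaip1, −1.12 to 1.03 for Phlda3, −0.13 to 0.30 for Zmat3, and −1.21 to 0.015 for Trp53inp1. With the block, the adjusted p of Cdkn1a with Chd8 siRNA lay between 0.0618 and 0.463 and that of Trp53 with Tsc2 siRNA between 0.0789 and 0.789 when a library was left out. Where 1 library of a group was left out, the group kept 2. Phlda3 and Trp53inp1 had the lowest counts of the members, with as few as 9 and 21 in a library, and the part of depth in their spread was not tested.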
